A study of Saccharomyces cerevisiae with 6 samples.

Results

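The siderophore iron uptake genes of budding yeast are 7 genes chosen by symbol in the platform annotation, the transporter genes ARN1, ARN2, SIT1 and ENB1 and the cell wall mannoprotein genes FIT1, FIT2 and FIT3. All 7 were on the array, among 5656 genes with a probe set that carries 1 symbol. Expression was measured on Affymetrix Yeast Genome S98 arrays, where each transcript is read by a probe set, a group of short probes. One strain, Y2685, lacks CBC2, the gene of the smaller protein of the nuclear cap-binding complex, and was set against its isogenic wild type, Y255. Each strain was measured on 3 arrays, 1 per sample, and all cells grew at 30 °C in SC (synthetic complete) medium until the OD600 was 1.0. The deletion is represented by 1 strain, and neither its marker nor other alleles of both strains are given in the sources used here. Experiments are called independent in the design text, but no label ties a sample to a culture of its own, and the p-values rest on a spread between samples that may be technical.

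Siderophores are small iron chelators that microbes secrete to bind ferric iron. Budding yeast makes none of its own but imports the iron-loaded siderophores of other microbes through the ARN family of membrane transporters. The FIT proteins are mannoproteins anchored in the cell wall that help to retain siderophore iron there. Genes of both groups are induced in iron-poor cells by the transcription factor Aft1 and, in part, by its relative Aft2.

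The comparison asks how transcript levels differ without CBC2. The deposited intensities were quantile normalised, floored at 8.35 (their 10th percentile) and taken to the log2 scale, and the strains were compared with limma. CBC2 (YPL178W) itself was at the floor on all 3 deletion arrays, against 882, 840 and 763 on the wild-type arrays, at least 99.0-fold lower. Correlations between arrays over all probe sets except controls, on log2 values, were 0.980 to 0.988 among deletion arrays, 0.985 to 0.986 among wild-type arrays and 0.951 to 0.969 between strains. The trimmed mean of the deposited intensities ran from 252 to 441 on the deletion arrays and from 302 to 474 on the wild-type arrays.

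Siderophore uptake genes were mostly lower in the deletion strain. A gene was called at a Benjamini-Hochberg adjusted p under 0.05 over all 6956 tested probe sets. All 4 transporter genes and FIT1 and FIT3 fell, 6 of the 7 genes, where 16.2% of all tested probe sets fell and 31.4% changed in either direction. All deletion arrays lay below all wild-type arrays for these 6, as for 24.7% of tested probe sets. FIT2, the dimmest of the 7, was the exception, with a higher mean in the deletion strain and no call. None of the 7 was called higher by limma, against 15.2% of tested probe sets, and 1 of them, FIT2, was higher at an unadjusted p of 0.036. The median log2 fold change (deletion minus wild type) of the 7 genes was -1.17, beside 0.00 over all 5247 tested genes. Of these 7 genes, 4 fell at least 2-fold, against 5.42% of tested probe sets. Every gene was read from its only probe set, none of which carries a cross-hybridisation suffix. In RNA from a whole culture, fewer cells expressing a gene and less RNA per cell cannot be told apart.

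**Figure D1:**
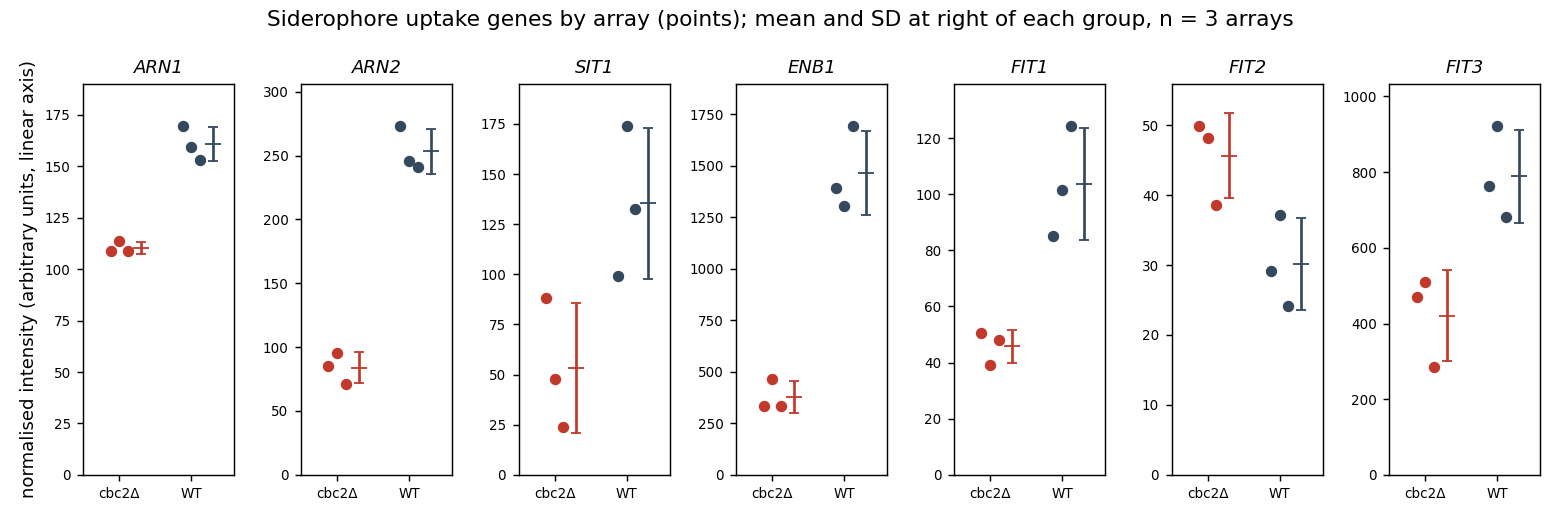
Normalised intensity (linear axis from 0, arbitrary units) of the 7 siderophore uptake genes, 1 point per array, in deletion (left) and wild-type (right) samples, with the mean and SD of 3 arrays beside the points. The deletion points lie below all wild-type points for 6 genes and above them for FIT2.

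ENB1 (YOL158C, also ARN4), the transporter of iron-loaded enterobactin, had the largest fall of the 7. Its normalised intensity was 334, 468 and 333 on the deletion arrays, against 1392, 1306 and 1696 on the wild-type arrays. The highest deletion array was well under the lowest wild-type array. ENB1 averaged 378 ± 77.5 in the deletion strain and 1465 ± 205 in the wild type (SD, n = 3 each), a log2 fold change of -1.96 (SE 0.19, adjusted p = 0.000188). Of 6956 tested probe sets, 25 had a lower log2 fold change.

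ARN2 (YHL047C, also TAF1), the transporter of triacetylfusarinine C, had 85.0, 95.4 and 71.0 in deletion samples, against 273, 246 and 241 in wild-type samples. The strains were far apart for their spread, with means of 83.8 ± 12.3 in the deletion strain and 253 ± 17.5 in the wild type (SD, n = 3 each). ARN2 was 3.04-fold lower without CBC2 (log2 fold change -1.61, SE 0.18, adjusted p = 0.000281).

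SIT1 (YEL065W, also ARN3), which takes up ferrioxamine B and other hydroxamate siderophores, had 88.1, 48.0 and 23.8 on the deletion arrays, against 99.3, 174 and 132 on the wild-type arrays. It varied most within a strain, and deletion replicate 1 lay close to wild-type replicate 1. Its mean was 53.3 ± 32.5 in the deletion strain and 135 ± 37.5 in the wild type (SD, n = 3 each). SIT1 fell by 1.50 on the log2 scale (SE 0.41, adjusted p = 0.0208), with a 95% confidence interval of -2.42 to -0.58. The call was lost without wild-type replicate 2 (-1.30, adjusted p = 0.0625) or wild-type replicate 3 (-1.50, adjusted p = 0.0642). It was also lost with dim probe sets kept in (adjusted p = 0.118) and with a block for the fluidics station, the instrument that washes and stains the arrays (adjusted p = 0.157).

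ARN1 (YHL040C), a transporter of ferrichromes, had the smallest fall among the called genes. Its values were 109, 114 and 109 in deletion samples, against 170, 160 and 153 in wild-type samples. Both strains were tight, at 110 ± 2.75 in the deletion strain and 161 ± 8.44 in the wild type (SD, n = 3 each). ARN1 was 1.46-fold lower (log2 fold change -0.54, SE 0.16, adjusted p = 0.0259). This call was the least stable of the 6: leaving out 1 array ended it in 5 of 6 cases (log2 fold changes from -0.50 to -0.58, highest adjusted p = 0.094). On the deposited scale ARN1 was at -0.87 (adjusted p = 0.161), with the replicate block at -0.54 (adjusted p = 0.0548), with the scan day block at -0.56 (adjusted p = 0.0545) and with the station block at -0.47 (adjusted p = 0.213).

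Of the 3 FIT genes, FIT1 and FIT3 fell and FIT2 was not called. FIT1 (YDR534C) had 50.5, 39.2 and 47.9 on the deletion arrays, against 85.0, 101 and 124 on the wild-type arrays. It averaged 45.9 ± 5.93 in the deletion strain and 104 ± 19.8 in the wild type (SD, n = 3 each). FIT1 was 2.25-fold lower without CBC2 (log2 fold change -1.17, SE 0.22, adjusted p = 0.00345).

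FIT3 (YOR383C) had 469, 510 and 284 in deletion samples, against 764, 923 and 681 in wild-type samples. Deletion replicate 3 was its lowest array, and no deletion value reached the wild-type range. The gene averaged 421 ± 120 in the deletion strain and 789 ± 123 in the wild type (SD, n = 3 each), a log2 fold change of -0.94 (SE 0.23, adjusted p = 0.0136). Its call ended with the station block (-0.74, adjusted p = 0.19) and with dim probe sets kept in (adjusted p = 0.068).

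FIT2 (YOR382W), which lies next to FIT3 in the gene order, had 49.9, 48.2 and 38.7 on the deletion arrays, against 29.1, 37.2 and 24.1 on the wild-type arrays. The deletion arrays all lay above the wild-type arrays, as for 22.8% of tested probe sets, but the lowest deletion value and the highest wild-type value were close. Its mean was 45.6 ± 6.08 in the deletion strain and 30.1 ± 6.57 in the wild type (SD, n = 3 each). The log2 fold change was 0.61 (SE 0.25, adjusted p = 0.09), with a 95% confidence interval of 0.05 to 1.17. On the deposited scale FIT2 had 55.2, 46.6 and 23.6 in deletion samples, against 32.4, 49.4 and 21.2 in wild-type samples, and the strains overlapped. The other 6 genes kept all deletion arrays below all wild-type arrays on that scale too. With array weights (0.68, adjusted p = 0.0483) or without an intensity trend (0.61, adjusted p = 0.049) FIT2 was called higher.

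The log2 fold change of FIT2 was above that of FIT3 by 1.55. In an exact two-sided permutation test over the arrays of the difference between both log2 values, a comparison chosen after the values were seen, p was 0.1, the smallest that 3 arrays against 3 allow. That p was fixed in advance, since every deletion array lay above the wild type for FIT2 and below it for FIT3. The test therefore cannot decide whether the genes differ. Differences between the other genes in the size of their change were not tested.

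**Figure D2:**
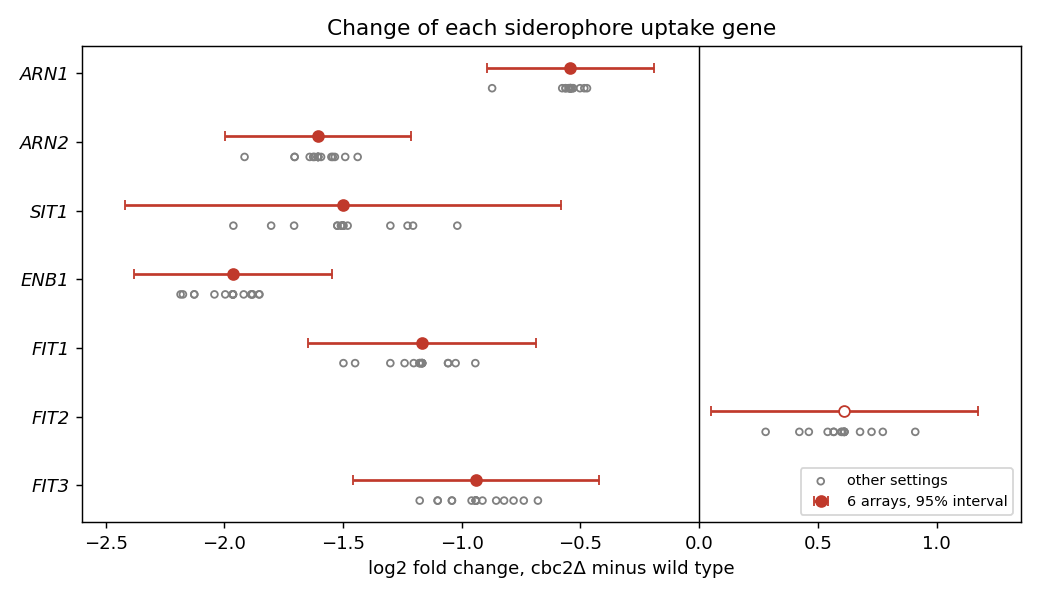
Log2 fold change (deletion minus wild type) of each siderophore uptake gene, with its 95% confidence interval from the 6 arrays. Filled points were called, and grey circles are the other settings: ARN1, ARN2, SIT1, ENB1, FIT1 and FIT3 stayed below 0 and FIT2 above 0 in each setting that tested them.

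The values of the 7 genes also varied within the strains. On deletion replicate 3, 6 of 7 genes lay below their deletion mean, with a median deviation of -0.23 on the log2 scale, beside 0.01 over all tested probe sets. On deletion replicate 1 the median deviation was 0.14 and on deletion replicate 2 it was 0.09. On the wild-type arrays it ran from -0.07 to -0.01. Deletion replicate 3 also had the lowest trimmed mean of deposited intensities (252) and the lowest array weight in limma (0.447, against up to 1.48). Its part in the results was not tested, but without it the same 6 genes were called lower, SIT1 at -1.02 and FIT3 at -0.68.

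Scaling and hybridisation set limits on the counts. On the deposited scale the median log2 fold change of all tested probe sets was -0.27 in place of -0.01, and 563 probe sets were called lower and 165 higher, where quantile normalised values gave 1129 lower and 1058 higher. On that scale 5 of the 7 genes fell, and ARN1 was not called. Wild-type replicates 1 and 2 were washed on fluidics station 1 and the other 4 arrays on station 2, so that within station 2 the 3 deletion arrays meet only wild-type replicate 3. With the station as a block, ENB1 (-2.18, adjusted p = 0.00592), ARN2 (-1.53, adjusted p = 0.0134) and FIT1 (-1.45, adjusted p = 0.0223) stayed called, 3 of the 7, while 4.90% of probe sets were called lower.

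Reductive uptake is the other route for iron: surface reductases free the iron, and a ferroxidase and permease pair carries it in. Of 11 genes of this list 8 were tested, 4 fell, 1 rose and 3 were not called, with a median log2 fold change of -0.60. The falls were 50% of the tested genes of the list, beside 16.3% of all tested genes. The reductase gene FRE2 had 46.4, 45.1 and 30.2 in deletion samples, against 140, 148 and 149 in wild-type samples (log2 fold change -1.87, SE 0.22, adjusted p = 0.00032). FRE6, a vacuolar reductase gene, fell by 1.44, the ferroxidase gene FET3 by 1.01 and its permease partner FTR1 by 0.80. Another reductase gene, FRE1, did not fall: its log2 fold change was 0.28, with no call (adjusted p = 0.309). FET4 (-0.40) and CCC2 (-0.33) were not called either. ATX1, a copper chaperone gene on the path that supplies copper to the ferroxidase, rose by 0.60 (adjusted p = 0.0341), a call lost in 9 of 17 other settings. FRE3, which encodes a reductase for siderophore iron, had 26.9, 25.6 and 17.8 on the deletion arrays and 20.2, 35.7 and 29.3 on the wild-type arrays. It was too dim to be tested, as was FRE4, and FRE5 was at the floor on all 6 arrays.

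Among 13 genes that handle iron inside the cell or that Aft1 is known to act on, 12 were tested, 5 fell and 1 rose (median -0.46), or 41.7% lower, beside 16.3% of all tested genes. TIS11 was too dim to be tested, with 38.6, 22.6 and 19.9 on the deletion arrays and 15.9, 13.7 and 25.3 on the wild-type arrays. ISU1 and ISU2, scaffolds of iron-sulfur cluster assembly, fell by 0.82 and 0.71. HMX1, the haem oxygenase gene, fell by 0.76, the biotin transporter gene VHT1 by 0.75 and the vacuolar ferroxidase gene FET5 by 0.58. For VHT1 the strains overlapped, with deletion replicate 2 (1073) above wild-type replicate 3 (1007). MRS3, a mitochondrial iron carrier gene, rose by 0.70 (adjusted p = 0.0228), but its call was lost in 6 of 17 other settings, among them the deposited scale (0.38, adjusted p = 0.621) and the station block (0.38, adjusted p = 0.351). The other 6 tested genes lay between -0.53 and 0.12. These calls were less stable than those of the reductive list: leaving out 1 array left between 1 and 5 of the falls, and none was called on the deposited scale. Over 17 other settings the call was lost in 9 for ISU1 and VHT1, 8 for HMX1, 7 for FET5 and 2 for ISU2. With the station block VHT1 was at -0.28 (adjusted p = 0.547) and ISU1 at -0.41 (adjusted p = 0.46).

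Of 10 regulators, all tested, 3 fell and 2 rose (median -0.08), beside 16.3% lower and 16.3% higher among all tested genes. AFT1 had 107, 117 and 109 in deletion samples and 116, 196 and 169 in wild-type samples. Its log2 fold change of -0.50 did not pass the test (adjusted p = 0.1). AFT2 had 87.0, 130 and 70.5 in deletion samples, against 216, 200 and 133 in wild-type samples (log2 fold change -0.95, adjusted p = 0.0221), a call lost in 6 of 16 other settings that tested it. GRX3 and GRX4, which encode a pair of related glutaredoxins that relay iron status to Aft1, moved in opposite directions. GRX4 had 902, 1338 and 935 on the deletion arrays, against 2660, 2852 and 2777 on the wild-type arrays (log2 fold change -1.41, adjusted p = 0.000457). GRX3 had 696, 560 and 830 on the deletion arrays, against 289, 323 and 308 on the wild-type arrays (log2 fold change 1.16, adjusted p = 0.00151). The call of GRX3 was lost in 1 of 17 other settings, the deposited scale (0.93, adjusted p = 0.121), while GRX4 kept its call in all 17. YAP5, a factor of the high-iron response, fell by 1.02, a call lost in 1 of 16 other settings that tested it. TUP1, a general corepressor of transcription that holds down siderophore uptake genes among many others, rose by 0.75 (adjusted p = 0.0082). That call was lost in 2 of 17 other settings, among them the deposited scale (0.53, adjusted p = 0.437). CYC8 (-0.09), HDA1 (-0.07), FRA1 (0.00) and BOL2 (0.14) were not called. Whether any of these regulators bears on the siderophore uptake genes here was not tested.

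**Figure D3:**
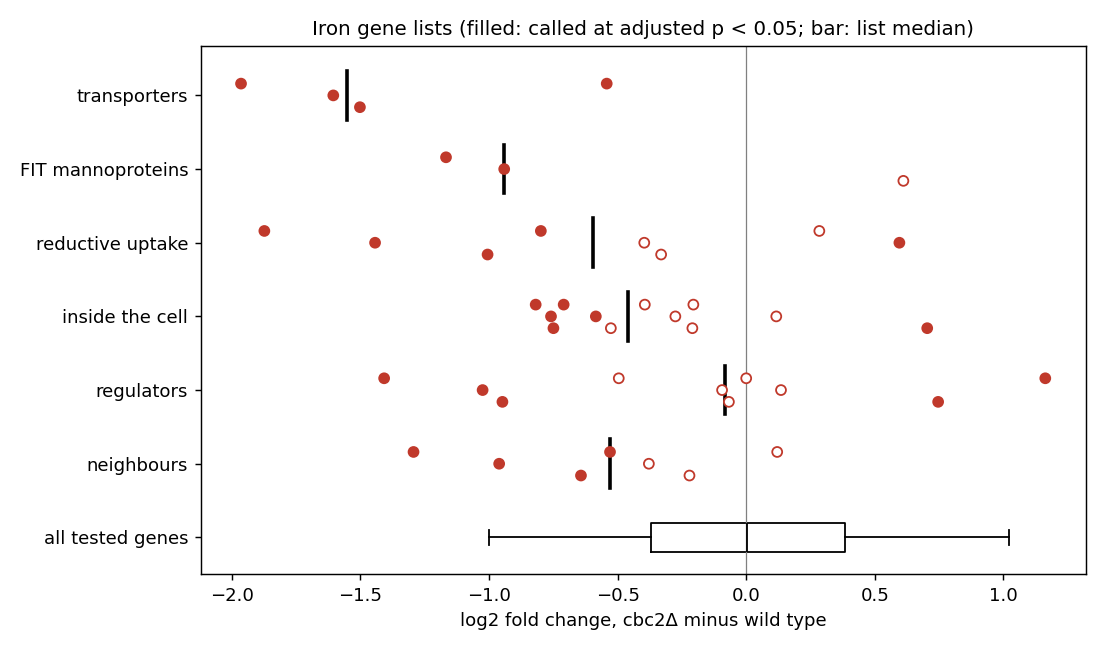
Log2 fold change (deletion minus wild type) of every tested gene of 6 lists, with filled points for called genes and a black bar at the list median. The box gives the quartiles of all tested genes with whiskers at the 5th and 95th percentiles: the median is -1.55 for the transporters, -0.94 for the FIT genes and -0.60 for reductive uptake, and 0.00 for all tested genes.

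The 7 genes share a place near chromosome ends that the choice by symbol did not use. In the gene order of assembly R64 they were the 5th (ARN2), 8th (FIT1), 11th (ENB1), 12th (ARN1), 13th (SIT1 and FIT3) and 14th (FIT2) gene from the nearer end. As a share of the 6431 nuclear genes listed there, 6.97% lie as near as the 14th. Among 398 other tested genes within 20 genes of an end, a group chosen after the values were seen, 26.4% fell and 13.1% rose, beside 16.3% and 16.3% of all tested genes. Their median log2 fold change was -0.15, against -1.17 for the siderophore uptake genes. The place is not particular to the 7: FRE2, FRE3, FRE4, FRE5, FRE6 and FET4 of the reductive uptake list also lie within 20 genes of an end. Of these, FRE2 (-1.87), FRE6 (-1.44) and the uncalled FET4 (-0.40) were tested and are among the 398.

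Genes directly beside the 7 gave a mixed picture. Of 12 neighbours outside the group, 9 had a probe set, 7 were tested, 4 fell (57.1%, beside 16.3% of all tested genes) and none rose by limma's adjusted p or at an unadjusted one under 0.05. All 7 tested neighbours are also counted among the 398 other tested genes near chromosome ends, of which 26.4% fell and 13.1% rose. CSS3, next to ENB1, fell by 0.96 (adjusted p = 0.00184), and AVT2, next to SIT1, fell by 1.29 (adjusted p = 0.0139). HSP31, beside FIT1, encodes a stress-inducible chaperone and fell by 0.53 (adjusted p = 0.016), but with the arrays scaled to one median HSP31 was at -0.07 (adjusted p = 0.827), and its call was lost in 7 of 17 other settings. PAU13, beside ARN2, fell by 0.64, read from a probe set whose suffix marks shared probes with its gene family. EFM1, COS8 and HPA3, which lie next to ARN1, ARN2 and SIT1, were not called, with log2 fold changes from -0.38 to 0.12. FRE5, next to FIT3, and STL1, next to FIT1, were too dim to be tested.

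**Figure D4:**
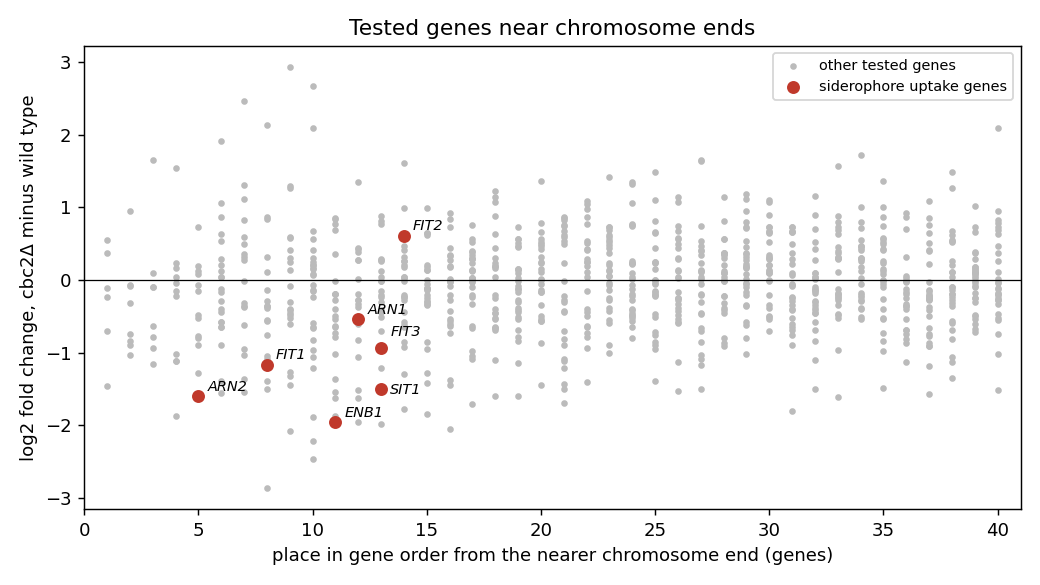
Log2 fold change (deletion minus wild type) of tested genes against their place in the gene order from the nearer chromosome end, with the siderophore uptake genes in red and other tested genes in grey. The 7 genes lie at places 5 to 14, and grey points there spread to both sides of 0.

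Likeness of pattern was measured as the root mean square difference between log2 values centred on each gene's mean, over the 6 arrays. The genes outside the group closest to the mean of the 4 transporters were MBF1, a transcriptional coactivator (0.07), RTR1, a phosphatase of RNA polymerase II (0.07), PDR11, a sterol uptake transporter (0.08), and NPR2, a regulator of nitrogen signalling (0.11). Of the transporters themselves ARN2 was nearest to their mean (0.16) and ARN1 farthest (0.47). By closeness to that mean ARN2 ranked 28th and ARN1 720th of 5247 tested genes. MBF1, RTR1, PDR11 and NPR2 lay nearer than any transporter, but were picked as the closest of all these genes. The mean of the FIT genes includes the uncalled FIT2, with its log2 fold change above 0. Closest to that mean were STI1 (0.04), RAD6 (0.07), NPR3 (0.08) and EFM5 (0.08). They lay nearer than any FIT gene (0.28 to 0.57), but were picked as the closest of 5247 tested genes. Of them NPR3 was called lower (adjusted p = 0.0322), while STI1, RAD6 and EFM5 were not called.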

How the data were processed

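The authors deposited linear intensities for 9335 probe sets on each array. How they summarised or scaled them is not given in the sources used here. Other values, per the file headers of the run information files, are fluidics stations and scan days, used only as blocks. Trimmed means of the deposited intensities (2% at each end) differed up to 1.88-fold, so arrays were quantile normalised, which can hide a change of the whole RNA pool. Values were floored at the 10th percentile and log2 transformed. After removal of 60 controls and of the 25% of remaining probe sets with the lowest mean log2 value, 6956 were tested with limma 3.58.1 in R 4.3.3 (lmFit, eBayes with an intensity trend) over all 6 arrays without a block. Every adjusted p is limma's unless an exact test is named. The fit was tested on simulated data. The number of arrays limits the precision (median SE 0.20, log2).

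The annotation gave 6504 probe sets 1 symbol, 328 several and 2503 none, and all 6504 matched assembly R64 by gene ID. Gene order was taken from its nuclear chromosomes, without the mitochondrial genome. A gene was read from its brightest probe set without a suffix, or, failing that, from its brightest one with a suffix. The members, lists and tests were chosen with earlier results of these data known. By rule, all 7 members, CBC2, genes of the iron lists and neighbours and the 4 genes of closest pattern per group could be named. A planned search of promoter motifs was not run, and promoter sequences were not used here. The 17 other settings covered scaling, floor, pseudocount, filter, variance model, blocks (replicate number, station, scan day), array weights and each array left out. Same-numbered replicates did not deviate together (correlations of -0.23, -0.09 and 0.08 over probe sets).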

Additional observations from a re-analysis of the deposited data

How the results depend on the processing

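All 7 siderophore uptake genes kept their sign in every setting that tested them, and ENB1, ARN2 and FIT1 kept their calls. The fall was called for 4 to 6 of the 7 genes when 1 array was left out and for 5 with the replicate number as a block, which lost ARN1. With the dimmest 50% left out it was 4, since FIT1 and SIT1 were no longer tested. With the station block it was 3, and 341 probe sets were called lower and 334 higher over the whole array; on the deposited scale these were 563 and 165. One gene, FIT2, was called higher (a count of 1) with array weights and without an intensity trend. Lists are given as genes lower and higher. For reductive uptake (4 and 1 at first), the station block gave 2 and 0, and the deposited scale, no filter and the scan day block each gave 0 higher. For genes inside the cell (5 and 1), the deposited scale gave 0 and 0, scaling to one median 2 lower, no filter 2 and 0, no intensity trend 3 lower and the station block 1 and 0. For regulators (3 and 2), the deposited scale gave 0 higher, the dimmest 50% left out 1 lower and the station block 1 and 1. For neighbours (4 lower), the deposited scale and no filter gave 2 and the station block 1. Leaving out 1 array gave 4 lower and 0 to 1 higher for reductive uptake, 1 to 5 and 0 to 1 inside the cell, 2 to 3 and 2 for regulators, 2 to 4 and 0 for neighbours, and 770 to 1032 and 722 to 935 over all probe sets. The cause of these changes was not tested. A pseudocount of 16 or a floor at the 20th percentile changed none of the calls of the 7 genes.

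The scan day block takes out deletion replicate 2, the only array of its day, so it is no separate check. Over the named genes and other settings, 390 of the pairs kept sign and call, 92 lost and 3 gained a call, and 0 turned. The SE of 0.25 for FIT2 is large beside its log2 change of 0.61, and dim genes such as FRE3 and FRE4 were not tested. For ARN1 limma's SE was 0.16 beside a change of -0.54, although its own pooled SD within strains was 0.06 (log2). With dim probe sets kept in, the SE of ARN1 was 0.09 (adjusted p = 0.0195).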
